A study of Homo sapiens with 21 samples.

Results

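The MAP kinase cascade genes described here were the genes whose name in the deposited cluster lists is MAP4K, MAP3K, MAP2K or MAPK followed by a number. Of 778762 HNRNPK binding clusters in 4 PAR-CLIP libraries, 2652 carried such a name, and they fell in 38 of the 18322 gene names with a cluster. The choice used names only and no measured value. By library, the clusters numbered 707 of 201726 in the cytoplasm and 704 of 200387 in the nucleus of parental cells, and 556 of 177530 in the cytoplasm and 685 of 199119 in the nucleus of *KRT19* KO cells.

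MAP kinase cascades relay signals from the cell surface and from stress sensors through kinases that phosphorylate one another in order. A MAP4K or a small GTPase activates a MAP3K, the MAP3K phosphorylates a MAP2K, and the MAP2K activates a MAPK of the ERK, JNK or p38 family or ERK5. ERK signalling is best known for driving proliferation, and JNK and p38 for responses to stress and cytokines. HNRNPK is an RNA-binding protein with KH domains that prefers single-stranded C-rich sequence and moves between nucleus and cytoplasm.

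The study asked how keratin 19 (K19), the product of *KRT19*, affects the RNA bound by HNRNPK in MDA-MB-231 cells, an established triple-negative breast cancer line. The 4 groups were parental cytoplasm, parental nucleus, *KRT19* KO cytoplasm and *KRT19* KO nucleus, each with 1 library. Both genotypes were grown with 4-thiouridine (4SU), crosslinked at 365 nm, fractionated, digested with RNase T1, which cuts after G, and immunoprecipitated with an antibody against HNRNPK/J. The KO was made with CRISPR/Cas9. Whether the KO cells came from 1 clone is not given in the sources used here. With no replicates, no test between groups was possible, and each difference below compares those libraries. The intervals given are 95% Wilson intervals for shares and 95% exact intervals for reads and their ratios. They cover counting error only and hold no variation between replicates. Any PCR copies left among the reads would not be independent molecules.

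Reads in clusters numbered from 3252800 to 6216226 per library. Levels are given as RPM, a gene's reads scaled to 1000000 reads in clusters of its library. RPM and the ratios below are thus shares of a library and do not give the amount of RNA bound. The paper reported less HNRNPK protein in the cytoplasm of *KRT19* KO than of parental cells. How this bears on the values below was not tested. No cluster of a member gene had fewer than 5 reads. A gene without a cluster was therefore below the calling limit and not shown to be unbound. For *KRT19* the cytoplasmic libraries held an intronic cluster each, with 7 reads in parental and 5 in KO cells, and the nuclear libraries none, so the genotype cannot be checked from it. CD44, VIM, EGFR and AXL, which this line is known to express, had clusters in all 4 libraries. PGR had none, CDH1 had 1 cluster in the KO nucleus, and ESR1, which this line is taken to lack, had between 2 and 10 clusters in each library. The nuclear RNAs NEAT1 and KCNQ1OT1 were higher in the nuclear library of each genotype. MALAT1, another nuclear RNA, was not, with 1229 RPM in the parental cytoplasm against 888 in the nucleus, and 842 against 548 in the KO. Mitochondrial genes took 6925 RPM in the parental cytoplasm and 8228 in the parental nucleus, and 46088 and 36432 in the KO libraries. The fraction labels are used below as given, and the part of these differences in the comparisons was not tested.

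The member sites that the rest of this section turns on are shown here as the RNA-strand sequence, 5′ to 3′, written with T for U. Each line holds at most 30 bases inside the cluster, with GRCh37 (hg19) coordinates, and was chosen because the site had the most reads of all sites, of its annotation class, or of those bound in all 4 libraries. Capitals mark the HNRNPK motif, which is T or A, then T, C or A, then CCC. Where a cluster held the motif, the 30 bases were placed around the copy nearest its peak, as far as the cluster's ends allowed. The motif content of a line thus depends in part on this placing.
MAP3K2 3′UTR (chr2:128064948-128064977, minus strand): ttatatttaatctttttTTCCCttacaaga
MAPK8 3′UTR (chr10:49645230-49645259, plus strand): aactaaaatacttaacaaattatatcctaa
MAP2K1 3′UTR (chr15:66783820-66783849, plus strand): aacaaatctaatctcttattctaataaata
MAP3K7 3′UTR, nearer the stop codon (chr6:91225787-91225816, minus strand): tcaaaatattaataatttttTTCCCaaaag
MAP3K7 3′UTR, farther from it (chr6:91224726-91224755, minus strand): ctttttcttccattattttttcctcctacc
MAP3K4 intron (chr6:161497098-161497127, plus strand): aatatcctTTCCCaTACCCttccaaaaata
MAP4K5 intron (chr14:50902928-50902957, minus strand): attatctcatttAACCCttaaacaactcca
MAP4K5 second intron site (chr14:50933912-50933941, minus strand): tcctctatcatacTACCCCcatagcccaca
MAP3K9 intron (chr14:71257781-71257810, minus strand): TTCCCTTCCCCacATCCCtcccaaccaaac
MAP2K7 intron (chr19:7969731-7969760, plus strand): cTCCCCTTCCCttcacacccacacccacct
MAP4K4 coding (chr2:102488063-102488092, plus strand): ctccacctcctccTCCCCatcctccagcca
MAP3K4 coding (chr6:161518166-161518195, plus strand): ctcctAACCCacacctcattATCCCCactc
MAP4K4 second coding site (chr2:102490139-102490168, plus strand): cacaaatcttcctcctcctttacacctttt

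Each of the 5 intronic sites held the motif, and 3 of them held copies that did not overlap one another within the 30 bases shown. The most read 3′UTR site, in MAP3K2, held it once, next to a run of T. The 3′UTR sites of MAPK8 and MAP2K1 and the farther one of MAP3K7 had no CCC in the whole cluster. Each of these cluster sequences occurred at 1 place in GRCh37, counting exact matches of the whole cluster on both strands. Shorter reads and reads with mismatches were not checked, so an origin of reads in related kinase genes or pseudogenes was not tested. G made up between 6.10% and 8.65% of the bases of member clusters across the libraries.

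Across the 38 genes, most clusters were intronic in every library, while most reads of the KO cytoplasm were in 3′UTRs. Introns held 80.9% of the member clusters in the parental cytoplasm (77.8 to 83.6%), 74.8% in the KO cytoplasm (71.1 to 78.2%), 89.8% in the parental nucleus (87.3 to 91.8%) and 92.7% in the KO nucleus (90.5 to 94.4%). Over all clusters with a gene name the intron shares were 74.4%, 63.4%, 83.7% and 82.1%, below the intervals of the members in each library. The 3′UTR share of member clusters was 10.9% (8.80 to 13.4%), 17.6% (14.7 to 21.0%), 3.27% (2.19 to 4.85%) and 3.07% (2.01 to 4.64%) in the same order. Over all clusters with a gene name the 3′UTR shares were 12.998%, 20.4%, 4.80% and 5.37%, inside the intervals of the members except in the KO nucleus, where the members were lower. Counted by reads, the 3′UTR share of the members was 25.7% in the parental cytoplasm and 56.7% in the KO cytoplasm, beside 37.8% and 53.6% over all genes. In the nuclei it was 2.91% in parental and 3.76% in KO cells, beside 6.42% and 6.89% over all genes. Introns held 63.9%, 36.7%, 90.1% and 91.6% of the member reads.

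**Figure D1:**
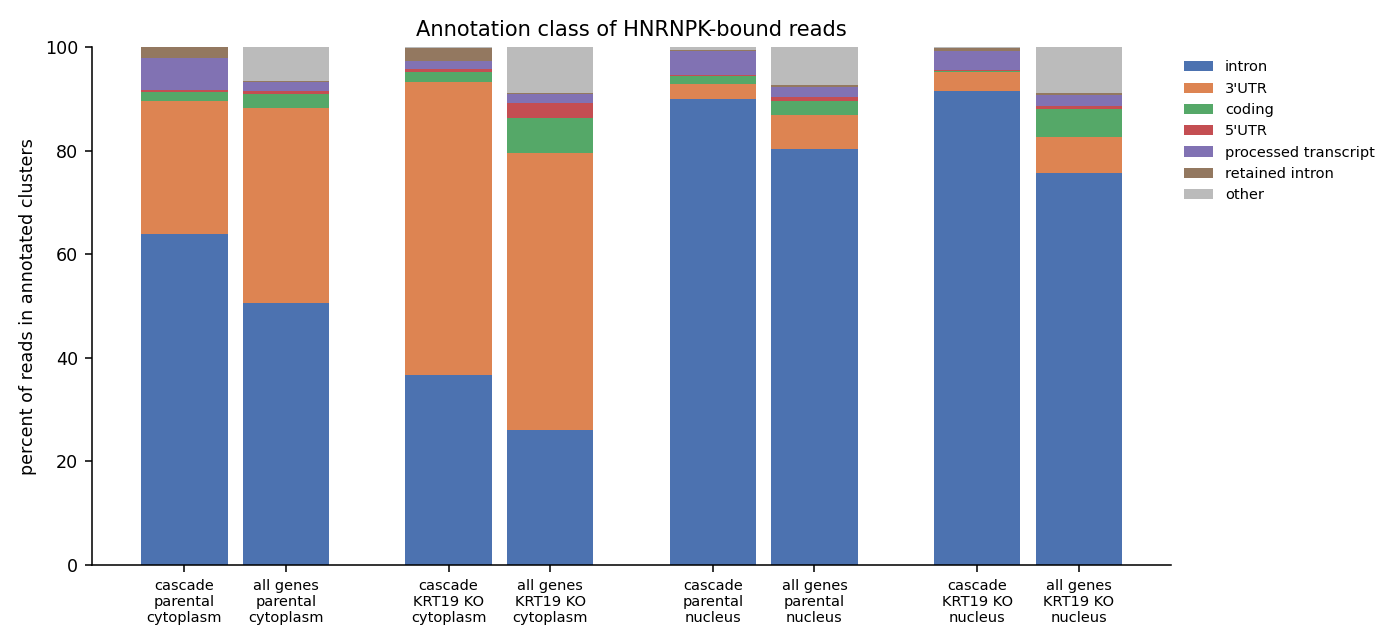
Share of reads (percent, vertical axis) by annotation class in each library, for the MAP kinase cascade genes ("cascade") and for all clusters with a gene name ("all genes"). The 3′UTR segment of the cascade genes was 25.7% in the parental cytoplasm and 56.7% in the KO cytoplasm, and under 4% in both nuclei.

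The share of all 3′UTR reads that fell in member genes was 21.3 per 10000 in the parental cytoplasm (20.6 to 22.0) and 30.1 in the KO cytoplasm (29.5 to 30.8). For introns it was 39.6 and 40.1 per 10000. So the share of 3′UTR reads in member genes was higher in the KO cytoplasm, and the share of intron reads did not differ beyond counting error. The MAPK8 and MAP2K1 sites shown above held 1199 and 879 of the 8877 member 3′UTR reads of the KO cytoplasm and none of the 3740 of the parental cytoplasm. Coding clusters were few. They numbered 14 in the parental cytoplasm, 13 in the KO cytoplasm, 10 in the parental nucleus and 1, with 8 reads, in the KO nucleus. Their shares of the member clusters were 1.98%, 2.34%, 1.42% and 0.146% in that order. Over all clusters with a gene name the coding shares were 3.42%, 6.12%, 2.05% and 2.02%. In all, 1653 of the 1956 member sites, made by merging overlapping clusters of the 4 libraries, were intronic, 157 were in a 3′UTR and 33 in coding sequence.

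Clusters were unevenly spread over the genes. The 12 members with the most clusters held 1907 of the 2652, or 71.9%, while 10 members had fewer than 10 each. In all, 30 of the 38 had a cluster in every library. MAP4K1 had a cluster only in the KO nucleus, MAP4K2 and MAPK11 only in the 2 nuclei, and MAPK4 only in the 2 parental libraries. MAP3K6, MAP3K19, MAP3K20, MAP3K21 and MAPK15, which match the naming rule in the reference annotation, had no cluster under those names. Clusters of MAP3K21 were listed under its older name MLK4, with 52, 91, 39 and 31 reads, and are not counted here. Members were long genes, with a median length of 82.0 kb against 40.2 kb over all protein-coding genes with a cluster. Per length, they had a median of 6.88 clusters per 10 kb over the 4 libraries, against 5.52 for all such genes, with quartiles of 1.73 and 10.96.

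**Figure D2:**
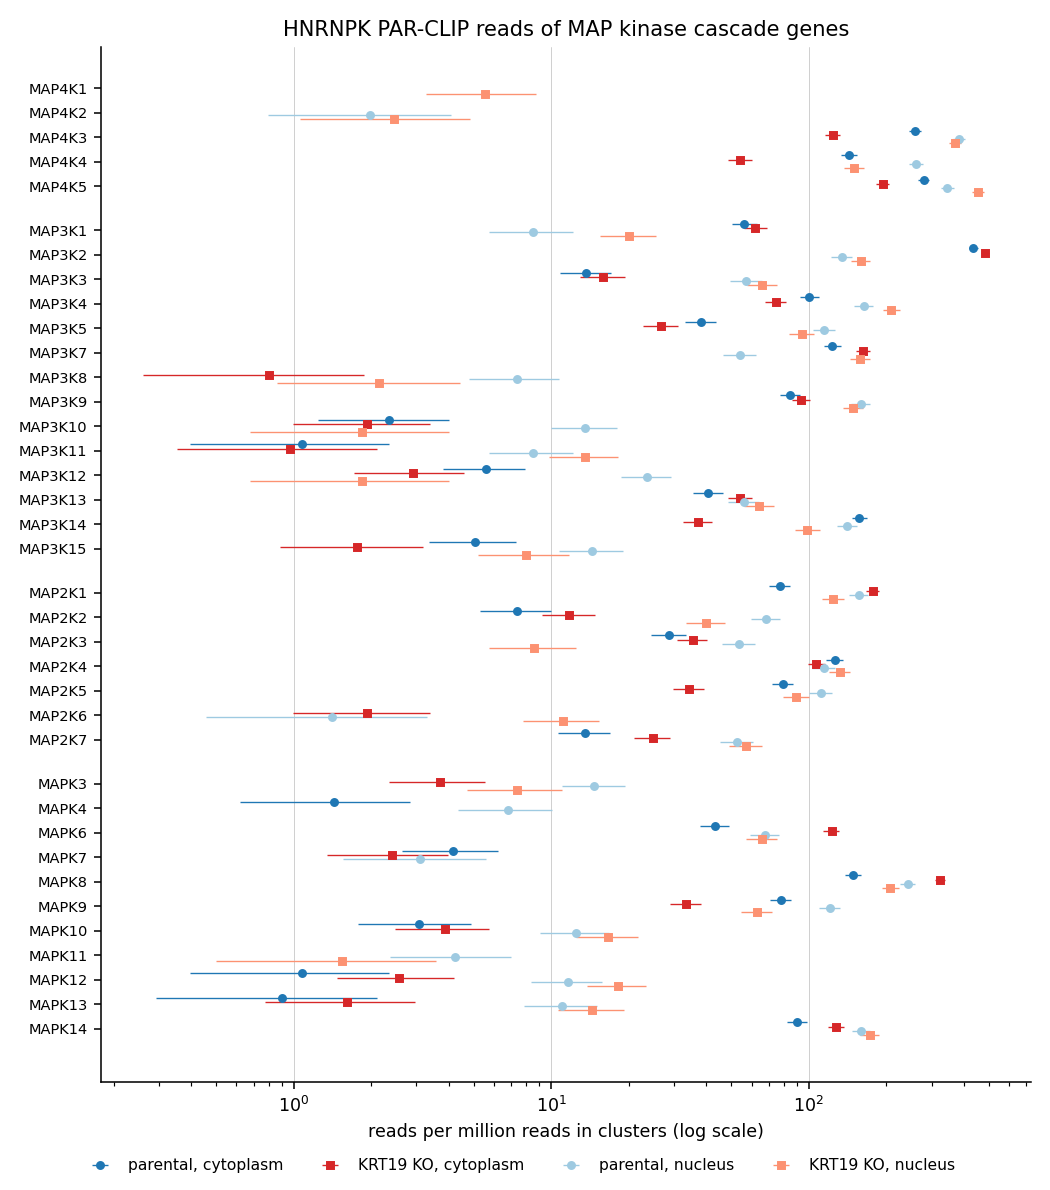
RPM (horizontal log axis) of the member genes in each library, grouped from MAP4K at the top to MAPK at the bottom. Bars are 95% exact Poisson intervals, and a gene without a cluster in a library has no symbol there. MAP3K2 lies at 435 and 482 in the 2 cytoplasmic libraries and at 134 and 159 in the nuclear ones, while the 3 high MAP4K genes are lowest in the KO cytoplasm.

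The MAP4K tier, kinases at the top of the cascade, had 706 clusters in 5 genes, and 703 of these were in MAP4K3, MAP4K4 and MAP4K5. MAP4K3, a kinase linked to amino acid sensing and JNK signalling, had the most clusters of any member, with 78, 53, 69 and 71 in the parental cytoplasm, KO cytoplasm, parental nucleus and KO nucleus, the order used from here on. Its levels were 258 RPM (245 to 272), 124 (115 to 133), 384 (364 to 405) and 369.8 (349 to 391). MAP4K5 had 261 clusters and 279.6, 194, 345 and 455 RPM. MAP4K4, a kinase tied to cell migration, had 171 clusters and 144, 54.2, 261 and 150.3 RPM. All 3 were thus lowest in the KO cytoplasm, with intervals that did not overlap those of the other libraries. Of the clusters in these genes, 96.5% to 98.2% were intronic. Intron reads were lower in the KO than in the parental cytoplasm for most genes, with a median ratio of 0.607 over all genes. That ratio was 0.4998 in MAP4K3, 0.358 in MAP4K4 and 0.671 in MAP4K5. Both coding sites of MAP4K4 shown above were read in the parental cytoplasm, with 74 and 99 reads, and in the parental nucleus, with 59 and 17. The first had 89 reads in the KO cytoplasm and the second no cluster there, and neither had a cluster in the KO nucleus.

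MAP3K is the largest tier, with 871 clusters in 14 genes. MAP3K2, an activator of the ERK5 and JNK branches, had the most reads of any member over the 4 libraries, 2417, 2999, 475 and 517. In each nucleus several other members had more, led by MAP4K3 and MAP4K5 and including MAPK8, MAP3K4 and MAPK14. The levels of MAP3K2 were 435 RPM (418 to 453), 482 (465 to 500), 134 (122 to 147) and 159 (146 to 173). MAP3K2 was also the member with the densest 3′UTR binding, with 55 3′UTR clusters over the 4 libraries or 6.17 per kb. The median was 1.88 per kb for both the 21 members and the 7905 genes with a 3′UTR cluster. Reads in its 3′UTR numbered 2104, 2829, 93 and 72. It ranked 143rd of 5958 genes by 3′UTR reads in the parental cytoplasm and 192nd of 6376 in the KO cytoplasm. Per kb of 3′UTR its ranks were 516 and 677. Near the start of this 3′UTR, 166 nt in, lay the site with the most reads of all member sites, with 1326, 1389, 55 and 44 reads. The changes from T to C that mark crosslinked 4SU were carried by 30.8% and 38.9% of its reads in the cytoplasmic libraries, below the 65.1% and 62.2% over all member reads there. Other sites in the same 3′UTR varied between the cytoplasmic libraries. Of 36 sites, 13 had a cluster in both, 13 in the KO alone and 10 in the parental cells alone.

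**Figure D3:**
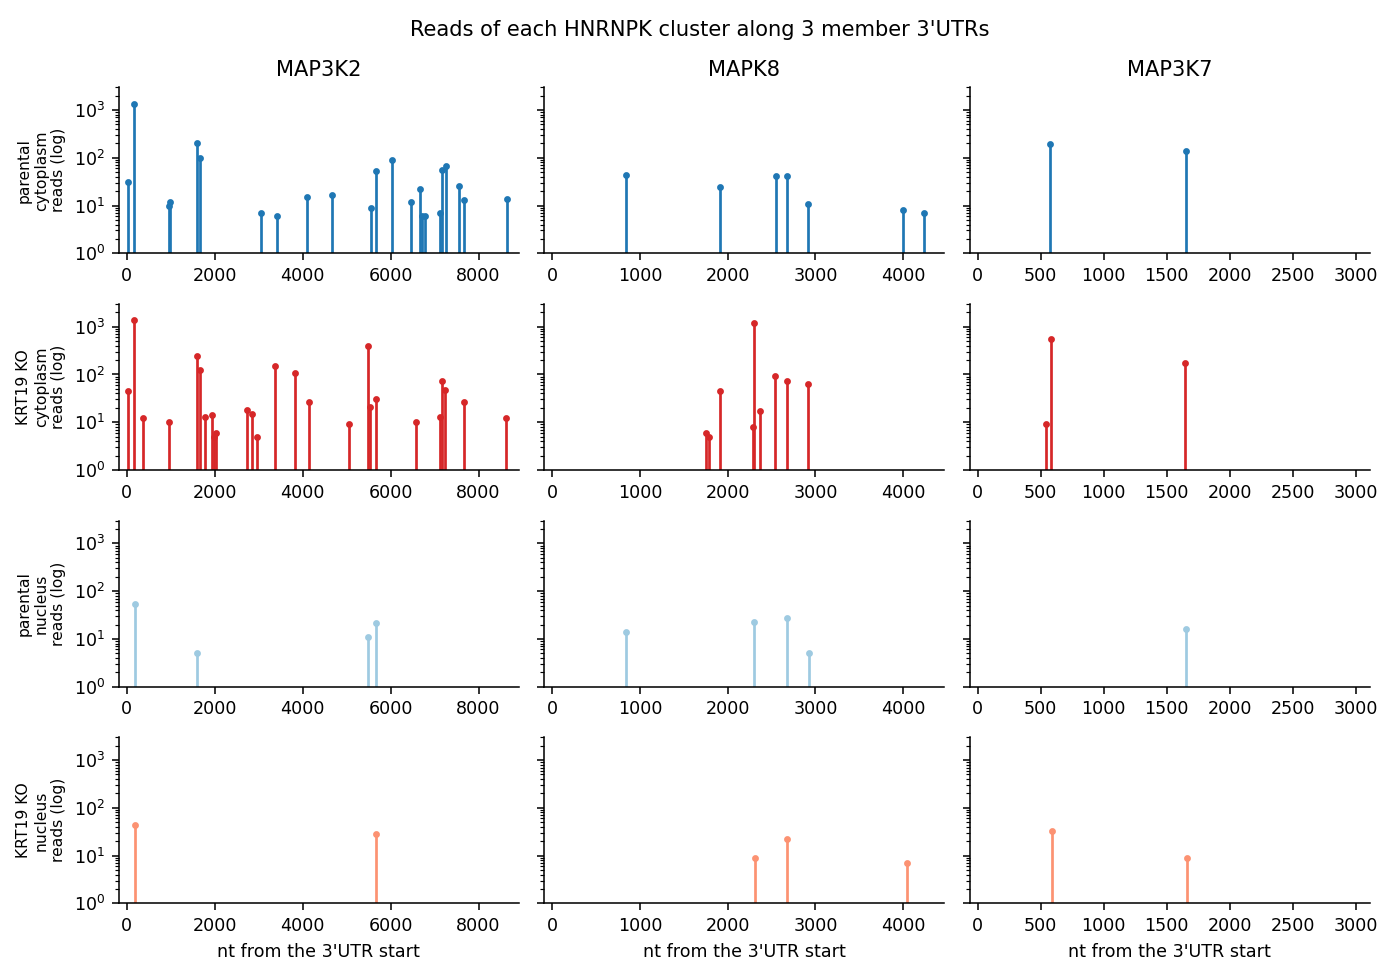
Reads of each cluster (vertical log axis) against the distance in nt of its peak from the start of the 3′UTR (horizontal axis) for MAP3K2, MAPK8 and MAP3K7, 1 row for each library. MAP3K2 has the same leading site in all 4 libraries, whereas the tall MAPK8 site at 2300 nt, with 1199 reads in the KO cytoplasm, has no parental cytoplasmic counterpart.

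MAP3K7 encodes TAK1, which carries cytokine signals to JNK, p38 and NF-κB. It had 123, 162, 54.0 and 158 RPM. Its nearer 3′UTR site had 195 reads in the parental cytoplasm, 547 in the KO cytoplasm, no cluster in the parental nucleus and 33 reads in the KO nucleus. Its farther site was read in all 4 libraries, with 141, 172, 16 and 9 reads. The parental nucleus was the lowest library for this gene, by more than the counting intervals.

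MAP3K4, a stress-responsive activator of p38 and JNK, had 101, 74.5, 163 and 209 RPM, with 103 of its 106 clusters in introns. Its leading intronic site was read in all 4 libraries, with 225, 211, 201 and 217 reads, or 40.5, 33.9, 56.8 and 66.7 RPM. That site made up 40.3% of the reads of the gene in the parental cytoplasm. MAP3K9, a mixed-lineage kinase, had 133 clusters, 28 of them in its 3′UTR, and 84.5, 93.1, 159 and 149 RPM. Its leading intronic site, rich in copies of the motif as printed above, had 70, 32, 133 and 89 reads. MAP3K5 (ASK1), which responds to oxidative stress, had 106 clusters and 38.2, 26.7, 115 and 93.8 RPM, so both nuclei were above both cytoplasms.

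For 2 MAP3K genes, the deposited annotation gave no intron or 3′UTR class at all. All 22 clusters of MAP3K1 were classed as retained intron and all 78 of MAP3K14 as processed transcript. By the GENCODE models, 14 of the MAP3K1 clusters, with 702 of its 793 reads, had their peak in a 3′UTR of the gene. MAP3K1, an activator of JNK and ERK, had 290 and 381 such reads in the cytoplasmic libraries and 11 and 20 in the nuclear ones, so both cytoplasms were above both nuclei as for MAP3K2. A single cluster held 269 of these reads in the parental cytoplasm, and a single cluster 308 in the KO cytoplasm. In MAP3K14, the NF-κB-inducing kinase NIK, 61 of the 78 clusters lay in introns by those models, with 833, 112, 400 and 195 reads. Classed in this way, 13.2% of member clusters were in 3′UTRs in the parental cytoplasm and 20.7% in the KO cytoplasm. The remaining MAP3K genes ran from 5 clusters in MAP3K8 to 81 in MAP3K13, and MAP3K8 had none in the parental cytoplasm.

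MAP2K genes encode the dual-specificity kinases that activate the MAPKs, and 7 of them had 439 clusters. MAP2K1 (MEK1) and MAP2K2 (MEK2), the activators of the ERK pathway, differed in level. MAP2K1 had 112 clusters and 77.1, 177, 156 and 125 RPM, and MAP2K2 had 36 clusters and 7.39, 11.7, 68.1 and 39.97. MAP2K1 was highest in the KO cytoplasm. There, 879 of its 1101 reads were in the 3′UTR cluster shown above, which had no counterpart in the other 3 libraries. That cluster held 354 unique reads, and 55.2% of its reads carried a T-to-C change. Outside it, the 3′UTR of MAP2K1 had 31 reads in the parental cytoplasm, 38 in the KO cytoplasm and none in the nuclei.

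MAP2K4, an activator of JNK and p38, had 133 clusters and 126, 107, 114 and 132 RPM. Its 3′UTR reads numbered 12 in the parental cytoplasm and 371 in the KO cytoplasm, while its intronic reads numbered 688 and 286. MAP2K7, the other activator of JNK, was the gene with the most clusters per length, at 24.4 per 10 kb, and its intronic site at chr19:7969731-7969761 was read in all 4 libraries with 49, 43, 68 and 114 reads. MAP2K3, an activator of p38, was lowest in the KO nucleus, at 8.61 RPM from 3 clusters. MAP2K5, which activates ERK5, had 95 clusters and no 3′UTR cluster, and MAP2K6 had 7 clusters in all.

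The 12 MAPK genes had 636 clusters. Among them MAPK8 (JNK1) had 191 and MAPK14 (p38α) 123, while the paralogs MAPK3 (ERK1), MAPK10 (JNK3), MAPK11 (p38β), MAPK12 and MAPK13 had between 2 and 14. MAPK8 had 149 RPM (139 to 159) in the parental cytoplasm, 324 (310 to 338) in the KO cytoplasm, 242 in the parental nucleus and 207 in the KO nucleus. Its leading 3′UTR site had 1199 reads in the KO cytoplasm, no cluster in the parental cytoplasm, and 23 and 9 reads in the nuclei. T-to-C changes were on 61.6% of the KO cytoplasmic reads of that site, and 489 of them were unique. A site read in both nuclei and in 1 cytoplasm was therefore below the calling limit in the other.

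MAPK14 had 90.2, 127, 159 and 172 RPM. MAPK6 (ERK3), an atypical MAPK without a MAP2K of its own, had 43.2, 123, 67.6 and 65.8, and its 3′UTR reads numbered 76 in the parental and 709 in the KO cytoplasm. MAPK9 (JNK2) had 77.8, 33.3, 121 and 62.7, so it was lower in the KO in both compartments, whereas MAPK8 was higher in the KO only in the cytoplasm. Summed over the JNK genes, the levels were 229.7, 361, 375 and 287 RPM.

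In the cytoplasm, the KO over parental ratio of each gene's share of all reads was computed for the 23 members with at least 100 reads in the 2 libraries together. Ratios ran from 0.236 to 2.84 with a median of 1.10, beside a median of 0.957 over the 7783 genes tested. In the KO, 3 members were at least 2-fold higher, and 19.6% of all genes were. Another 5 were at least 2-fold lower, and 20.2% of all genes were. The share of members called was close to this background for lower and below it for higher ratios. The highest ratios were those of MAPK6 at 2.84 (2.45 to 3.29), MAP2K1 at 2.30 (2.05 to 2.57) and MAPK8 at 2.18 (2.01 to 2.36). The lowest were those of MAP3K14 at 0.236 (0.203 to 0.273), MAP4K4 at 0.377 (0.331 to 0.429) and MAPK9 at 0.428 (0.361 to 0.506), and MAP2K5 and MAP4K3 were the other members called lower. Without the top cluster of each library, MAP2K1 turned to a log2 ratio of -0.94 and MAPK8 to -0.08.

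**Figure D4:**
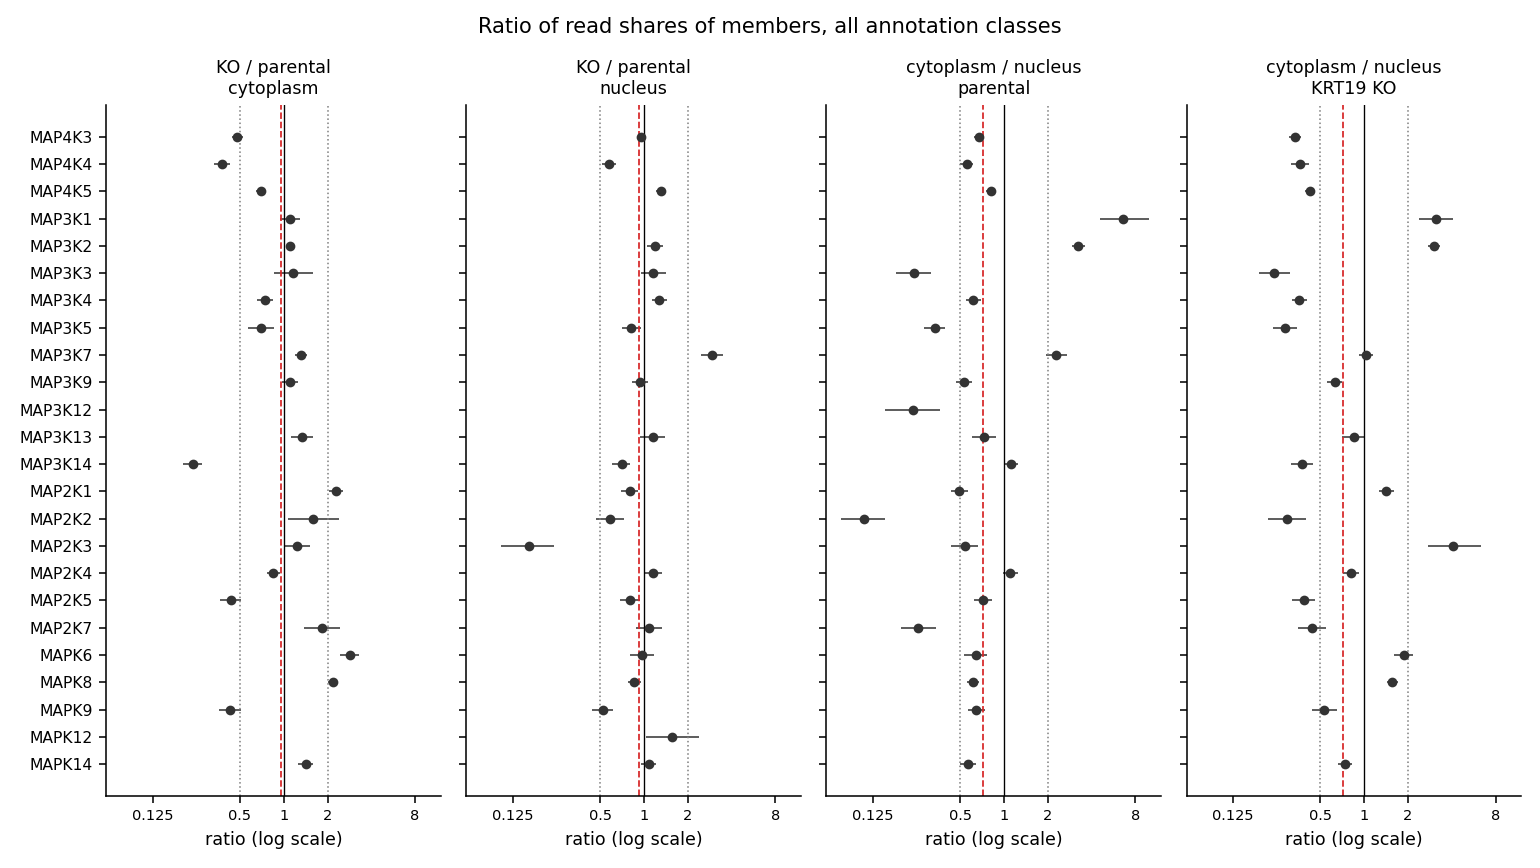
Ratio of read shares (horizontal log axis) for members with at least 100 reads in the 2 libraries compared, in 4 panels for the 4 comparisons. Bars are 95% exact intervals for counting error, dotted lines mark 2-fold, and the dashed line is the median over all genes tested, which was 0.714 for cytoplasm over nucleus in parental and 0.716 in KO cells.

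Split by class, the cytoplasmic ratios lay on opposite sides of 1. For 3′UTR reads, 11 of 13 members tested had a ratio above 1 with an interval above 1, and the median was 2.04 against 1.62 over 3800 genes. Of them, 7 were at least 2-fold higher, beside 39.9% of all genes, and none was 2-fold lower, beside 10.5% of them. Counted against the median ratio of all genes, 4 members were 2-fold above it, beside 22.8% of all genes. These were MAP2K4 with a ratio of 27.6 (15.6 to 53.9), MAP2K1 with 26.4 (18.5 to 39.1), MAPK6 with 8.33 (6.57 to 10.7) and MAPK8 with 7.57 (6.48 to 8.89). Without its leading 3′UTR site in the 2 libraries, MAP2K1 had a ratio of 1.09 (0.663 to 1.82) and MAPK8 one of 1.56 (1.29 to 1.88). The median of all genes given above keeps every site, so it is not a like measure for these values. MAP2K4 stayed at 11.8 (6.55 to 23.2) and MAPK6 at 4.44 (3.46 to 5.76). Of the other members, without that site MAP2K3 moved from 1.63 to 0.223 (0.0655 to 0.613), MAP4K5 from 0.808 to 0.290 (0.138 to 0.568) and MAPK9 from 0.809 to 5.18 (3.20 to 8.79), on 5 to 116 reads a library. In MAP2K4 and MAPK6 the 3′UTR reads in the KO were spread over several sites, of which 4 and 3 had no cluster in the parental cytoplasm. In MAP3K2, the member with the most 3′UTR reads, the ratio was 1.20 (1.13 to 1.27), below the median of all genes.

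For intron reads, 17 of 19 members had a ratio below 1, and the median was 0.601 against 0.607 over 5062 genes. Of them, 9 were at least 2-fold lower, beside 37.5% of all genes, and none was 2-fold higher, beside 5.97%. Among the lowest were MAPK9 at 0.267 (0.209 to 0.339) and MAPK6 at 0.298 (0.214 to 0.409). MAPK14 at 1.13 (0.980 to 1.30) and MAP3K3 at 1.16 (0.854 to 1.59) were the exceptions, with intervals that held 1. The median intronic ratio of the members was thus close to that of all genes, which moved the same way. The mitochondrial reads given above also differed between these libraries, and clusters with 1 unique read made up 23.3% of member clusters in the parental cytoplasm and 11.2% in the KO cytoplasm. Their part in these ratios was not tested.

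**Figure D5:**
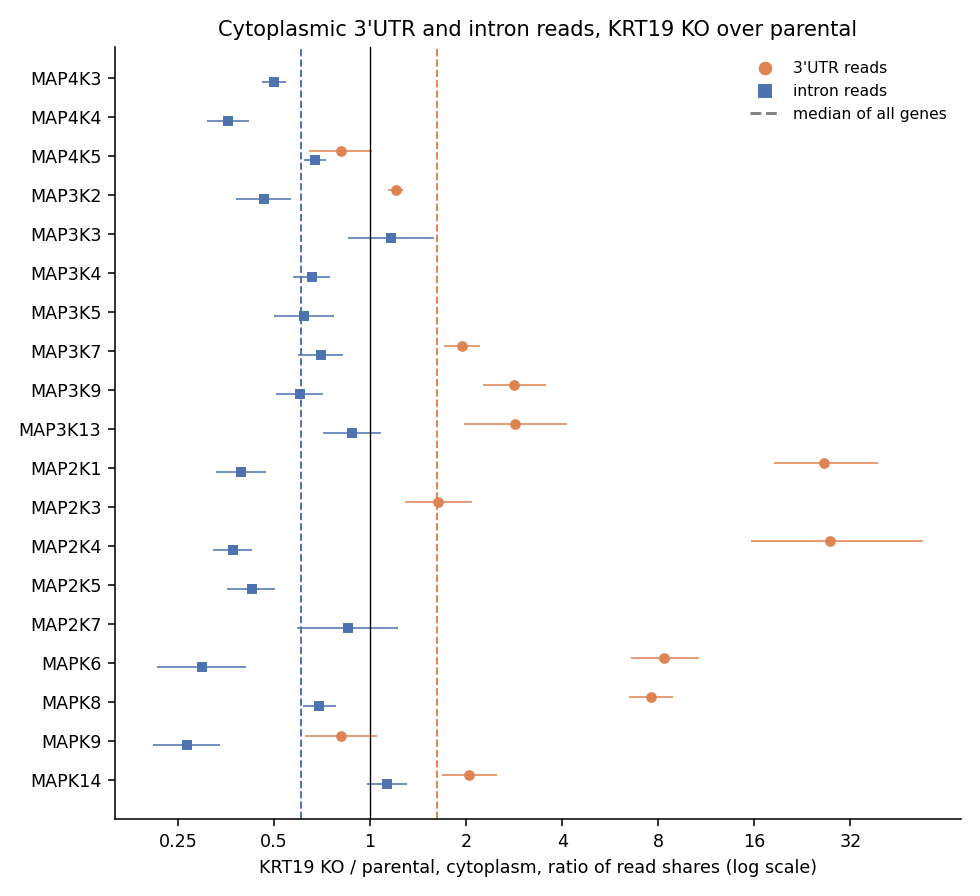
KO over parental ratio of read shares in the cytoplasm (horizontal log axis) for the 3′UTR reads (circles) and intron reads (squares) of members with at least 100 such reads, with 95% exact intervals. Dashed lines are the medians over all genes, 1.62 for 3′UTR and 0.607 for intron reads. Members with both symbols have the 3′UTR circle to the right of the intron square, farthest for MAP2K1 and MAP2K4.

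In the nucleus fewer members were past 2-fold than in the cytoplasm, 2 of 23 against 8 of 23, over a similar range of 0.161 to 2.93. The share over all genes was also lower in the nucleus, 26.9% against 39.8%. For the 23 members the KO over parental ratios had a median of 0.974, beside 0.928 over 7349 genes. Only MAP3K7 was at least 2-fold higher in the KO, at 2.93 (2.47 to 3.47), where 11.2% of all genes were. Only MAP2K3 was at least 2-fold lower, at 0.161 (0.104 to 0.240), where 15.7% of all genes were. MAP3K7 had 191 reads in 19 clusters in the parental nucleus and 514 in 36 in the KO nucleus, and MAP2K3 had 189 reads in 13 and 28 in 3. Next after these came MAPK12 at 1.57 (1.03 to 2.39) and MAP4K5 at 1.32 (1.22 to 1.42) on the high side, and MAPK9 at 0.520 (0.438 to 0.615) and MAP4K4 at 0.577 (0.516 to 0.644) on the low side. MAPK9 and MAP4K4 were also among the 3 lowest in the cytoplasm.

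Cytoplasm over nucleus ratios were below 1 for most members, 18 of 24 in parental and 16 of 23 in KO cells. The medians of the members were 0.628 and 0.566, beside 0.714 and 0.716 over all genes, so most genes tested were below 1 as well. In parental cells 3 of 24 members were at least 2-fold higher in the cytoplasm, beside 19.1% of all genes, and 6 were at least 2-fold lower, beside 31.3%. The 3 were MAP3K1 at 6.63 (4.55 to 9.99), MAP3K2 at 3.24 (2.94 to 3.59) and MAP3K7 at 2.29 (1.94 to 2.70). The lowest were MAP2K2 at 0.108 (0.0759 to 0.151), MAP3K12 at 0.238 (0.152 to 0.364) and MAP3K3 at 0.240 (0.182 to 0.314). In KO cells 3 of 23 were at least 2-fold higher, beside 26.1% of all genes, and 10 were at least 2-fold lower, beside 38% of all genes. The highest were MAP2K3 at 4.11 (2.77 to 6.33), MAP3K1 at 3.11 (2.38 to 4.11) and MAP3K2 at 3.04 (2.76 to 3.34). For MAP3K1 the top cluster held 86.2% of the reads in the parental and 79.8% in the KO cytoplasm. Without the top cluster of each library its ratio in KO cells fell below 1. The lowest were MAP3K3 at 0.241 (0.188 to 0.307), MAP3K5 at 0.285 (0.234 to 0.345) and MAP2K2 at 0.294 (0.218 to 0.394). The 4 comparisons share libraries with one another, so their values are not independent.

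Intron reads alone were lower in the cytoplasm for 20 of 22 members in parental cells. The exceptions were MAP3K7 at 1.25 (1.04 to 1.51) and MAP2K4 at 1.09 (0.958 to 1.23). They ranked 435th and 577th from the highest of 5857 genes, so most genes were also lower in the cytoplasm. In parental cells 11 of 22 members were at least 2-fold lower, where 48.2% of all genes were. In KO cells 20 of 20 members were, with ratios from 0.117 in MAP2K2 to 0.458 in MAP3K13, and 74.7% of all 5256 genes were. The median was 0.485 over the members in parental cells and 0.285 in KO cells, against 0.511 and 0.330 over all genes. MAP3K2 showed the split within 1 gene, since its intronic reads had a log2 ratio of -0.99 in parental and -2.44 in KO cells while its reads as a whole were about 3-fold higher in the cytoplasm.

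Single sites recurred little between libraries. Of the 1956 member sites, 1460 or 74.6% had a cluster in 1 library, 326 in 2, 141 in 3 and 29, or 1.48%, in all 4. Over all 592021 sites the shares in 1 and in 4 libraries were 77.4% and 1.68%. Of the member clusters in the parental cytoplasm, 26.7% (23.6 to 30.1%) were overlapped by a cluster of the KO cytoplasm, beside 25.5% of all clusters. A cluster of the parental nucleus overlapped 23.5% of them, beside 21.5% of all clusters. Of those in the KO cytoplasm, 34.0% (30.2 to 38.03%) were overlapped in the parental cytoplasm, beside 28.9% of all clusters. In 3′UTRs, 157 member sites included 64 with a cluster in the KO but not the parental cytoplasm, 43 with the reverse and 34 with both. Of all 45293 3′UTR sites the same counts were 18176, 11204 and 10219, which are similar shares. Between the nuclei, 20.3% of parental and 20.9% of KO member clusters were overlapped in the other genotype, beside 18.9% and 19.0% of all clusters. Low reads are common among these sites, since the median member cluster had 10 or 11 reads in each library and the limit was 5.

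The motif shown in capitals above was in 30.6% of member clusters in the parental cytoplasm (27.3 to 34.0%), 31.5% in the KO cytoplasm (27.7 to 35.4%), 33.1% in the parental nucleus (29.7 to 36.7%) and 34.0% in the KO nucleus (30.6 to 37.6%). Over all clusters the shares were 29.8%, 30.1%, 32.9% and 33.6%, inside the intervals of the members in each library. CCC alone was in 40.7%, 42.6%, 46.6% and 44.7% of member clusters. In base composition the member clusters of the parental cytoplasm were 36.5% T, 30.7% A, 25.9% C and 6.86% G. Intronic member clusters lay at a median of 1966 to 2211 nt from the nearest exon of the gene across the libraries, nearer than the 2450 to 2878 nt over all intronic clusters. Of them, between 0.874% and 2.68% lay within 100 nt upstream of an exon, beside 1.46 to 2.40% over all intronic clusters.

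Among 50 other genes of the pathway, 44 had a cluster, and 33 had enough reads for the comparison of KO with parental cytoplasm. Of these, 9 were at least 2-fold higher and 7 at least 2-fold lower, with a median ratio of 1.20. Over all genes 19.6% were higher and 20.2% lower, with a median of 0.957. By group, 3 of 4 RAF and MOS genes had a cluster, 11 of 12 scaffolds, 9 of 11 dual-specificity phosphatases, 11 of 11 kinases downstream of MAPKs and 10 of 12 transcription factors. In each group the gene with the most reads was BRAF, a MAP3K outside the naming rule, with 685, 423, 883 and 635 reads and none in its 3′UTR, then TAB2, the adaptor of TAK1, with 2001, 1656, 997 and 799. DUSP4, a nuclear phosphatase of MAPKs, had 1631, 1708, 1757 and 703 reads. RPS6KA3, a kinase activated by ERK, had 736, 682, 530 and 617. FOSL2, a subunit of AP-1, had 2685, 3752, 1446 and 485, of which 2110, 3317, 860 and 105 were in its 3′UTR. Of 8 phosphatases tested, 3 were at least 2-fold higher and 1 lower, with a median ratio of 1.78, and of 9 transcription factors 4 were higher and 1 lower, with a median of 1.92. Of 3 RAF and MOS genes none was higher and 1 lower (median 0.551), of 7 scaffolds 1 and 2 (0.739), and of 6 downstream kinases 1 and 2 (0.681). These groups are small and were not compared with one another.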

How the data were processed

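HNRNPK PAR-CLIP clusters from 4 libraries were analysed, 1 for each of 4 conditions, and the 17 RNA-seq samples were not analysed here. According to the methods, the authors collapsed identical reads, aligned them to hg19 and called clusters with PARalyzer in PARpipe. The authors deposited raw counts of reads, unique reads and conversions per cluster, with no normalization. The submitters' notes name bcl2fastq 2.20.0, Cufflinks 2.2.1, TopHat and Cuffdiff, and a hg38 build, without saying for which assay. All 2652 member cluster sequences were equal to GRCh37 at their positions. The deposited fraction, score and log10 columns were not used.

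Members were found by gene name. Their clusters, reads, RPM, deposited classes and motif shares were computed, and GENCODE version 44 lifted to GRCh37 gave gene lengths and a second class. Sites were merged from clusters overlapping by at least 1 nt on a strand. Ratios of read shares used genes with at least 100 reads in both libraries together, and a 2-fold ratio was the call. Intervals were Wilson for shares, exact Poisson for RPM and exact conditional binomial for ratios, at 95%. No p-value was computed, since each condition had 1 library. Reads in clusters per library ranged from 3252800 to 6216226.

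Named genes were the 12 members with the most clusters, the 8 with the most 3′UTR reads, the 3 highest and 3 lowest ratios in each comparison, members without a cluster and *KRT19*. Others are named to account for the remaining members. A gene that these rules cover is in the counts and is not reported singly here or plotted. Members and lists were chosen with earlier results of these data known. Alternatives covered minimum reads, unique reads and conversion locations, weighting by reads, other motifs, single classes, the overlap required, and leaving out the top cluster. The computations were tested on simulated data. The software was pandas 2.3.3, scipy 1.17.1, matplotlib 3.10.9 and numpy 2.4.6 under Python 3.11.15.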

Additional observations from a re-analysis of the deposited data

Results flagged for a closer look

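For 3 genes the ratio lay on opposite sides of 1 in 2 matched comparisons, with at least 1 ratio past 2-fold and both 95% intervals clear of 1. Each condition had 1 library, so none of these differences was tested. MAP2K1 (MEK1) had a KO over parental ratio of 2.30 in the cytoplasm and 0.796 in the nucleus, and its cytoplasm over nucleus ratio was 0.493 in parental and 1.42 in KO cells. A single 3′UTR cluster held 879 of its 1101 reads in the KO cytoplasm. MAPK8 (JNK1) had KO over parental ratios of 2.18 in the cytoplasm and 0.855 in the nucleus. MAP2K3 had KO over parental ratios of 1.24 in the cytoplasm and 0.161 in the nucleus, and cytoplasm over nucleus ratios of 0.536 in parental and 4.11 in KO cells. Its values rest on 3 clusters with 28 reads in the KO nucleus.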

How the results depend on the processing

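Member clusters numbered 394, 290, 412 and 418 with at least 10 reads in the parental cytoplasm, KO cytoplasm, parental nucleus and KO nucleus, and 335, 355, 176 and 159 with at least 2 conversion locations. With at least 2 unique reads, 457 remained in the parental and 438 in the KO nucleus. The 3′UTR share of the parental cytoplasm was 13.7%, 14.3% and 25.7% with at least 10 reads, with 2 conversion locations and weighted by reads, and that of the KO cytoplasm 26.2%, 22.0% and 56.7%. The motif share was 35.5% and 40.3% in the cytoplasms with at least 10 reads, and 40.3%, 37.7%, 50% and 58.5% in the 4 libraries with 2 conversion locations. It was 41.8% in the KO nucleus with 2 unique reads, 40.7%, 42.6%, 46.6% and 44.7% for CCC alone, and 19.7%, 20.1%, 20.6% and 23.1% for U, then U or C, then CCC. At 10 reads, 31.2%, 27.4% and 24.4% of parental cytoplasmic member clusters were overlapped in the KO cytoplasm, parental nucleus and KO nucleus. For KO cytoplasmic member clusters it was 42.4% in the parental cytoplasm and 33.1% in the parental nucleus. The shares over all clusters at 10 reads were not computed.

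Of KO over parental nuclear ratios, 2 of 23 members were past 2-fold in the main setting, beside 26.9% of all genes. With 2 conversion locations 5 of 18 were, beside 41.4%, and with at least 50 reads per gene 5 of 31, beside 32.6%. By unique reads 1 of 16 was, beside 17.2%, and in 3′UTRs 0 of 2, beside 43.2%. Of cytoplasm over nucleus ratios in parental cells, 9 of 24 were past 2-fold, beside 50.4% of all genes. By unique reads 3 of 17 were, beside 45.6%, and without the top cluster 5 of 22, beside 45.5%. In KO cells 13 of 23 were in the main setting, 3 higher and 10 lower, beside 26.1% and 38% of all genes. For introns there, 20 of 20 were at least 2-fold lower, where 74.7% of all genes were. Log2 ratios changed sign for introns in MAP2K1 (-1.34), MAPK6 (-1.75) and MAPK8 (-0.53) for KO over parental cytoplasm, and in MAP3K2 for cytoplasm over nucleus (-0.99 in parental, -2.44 in KO cells). Without the top cluster they also did so in MAP2K1 (-0.94) and MAPK8 (-0.077) for KO over parental cytoplasm. For cytoplasm over nucleus in KO cells they did so in MAP3K1 without the top cluster (-0.11), and for 3′UTRs in MAP2K7 (1.07) and MAP4K5 (1.10). Of the other log2 ratios, 276 stayed past 2-fold in the same direction and 20 did not. The cause was not tested. The class by GENCODE, the ratio to the median gene and leaving out the leading 3′UTR site were chosen after seeing the data. No paired analysis was possible because each condition has 1 library.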
